A study of Homo sapiens with 3 samples.

Results

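The nuclear pore complex genes were followed through the silencing of E2F1 in LNCaP-abl cells. They were chosen by a rule on symbols that uses no values, although earlier results of these data were known at the choice. The rule took every listed symbol made of NUP and a digit, pseudogenes left out. It added TPR, SEH1L, SEC13, RAE1, AAAS, POM121, POM121C, RANBP2, AHCTF1, NUPL1 and NUPL2. This gave 31 of the 22613 genes listed, and all 31 had a mean of at least 1 FPKM (fragments per kilobase of transcript, scaled to the mapped fragments of the library), the level required for testing. LNCaP-abl descends from the LNCaP prostate cancer line and grows without androgen. All cells were kept in phenol-red-free RPMI medium with charcoal-stripped serum, were transfected with siRNA by lipid reagent, and gave RNA after 72 h. The 2 control libraries, numbered 0 and 1, received control siRNA, and the single siE2F1 library received a pool of siRNAs against E2F1. No siE2F1 value therefore has a replicate, and nothing in the labels tells if the 2 controls were separate cultures. The p-values below rest on the spread of these 2 libraries alone, which may be technical.

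The nuclear pore is a large ring-shaped assembly set into the nuclear envelope, through which proteins and RNA pass between nucleus and cytoplasm. Its scaffold is built from a Y-shaped subcomplex, which forms the outer rings, and from an inner ring, while nucleoporins rich in phenylalanine-glycine repeats fill the channel and bind transport receptors. Filaments on the cytoplasmic face help release exported RNA, a basket projects into the nucleus, and a few membrane proteins anchor the ring. Pores are taken apart in mitosis and built anew, and further pores are added while the nucleus grows in interphase. E2F1 is a transcription factor that activates genes for entry into S phase, so the comparison asks how far pore gene expression differs when it is silenced.

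The silencing was visible in the targeted gene: E2F1 stood at 10.6 FPKM in each control and 1.68 FPKM in siE2F1 (log2 fold change -2.12, standard error 0.06, limma adjusted p = 0.0311). Of 9 luminal prostate markers fixed for this cell line, 8 were between 14.6 and 338.9 FPKM in each library, while KLK3, which encodes PSA, was between 0.0531 and 0.156 FPKM. Of the 2 listed basal markers, the keratin KRT14 was listed at 0 in each library and the integrin ITGB4 was at 2.81, 2.61 and 3.25 FPKM, above both controls in siE2F1. The 3 listed fibroblast markers together reached at most 1.74 FPKM. The 4 listed leukocyte markers summed to 12.5, 12.8 and 13.5 FPKM in control 0, control 1 and siE2F1. Among them PTPRC was at 0.842, 1.15 and 0.422 FPKM, below both controls in siE2F1. CD8A (2.52, 2.87 and 3.57 FPKM), CD68 (5.47, 5.29 and 5.67 FPKM) and LYZ (3.66, 3.51 and 3.84 FPKM) were above both. The part of other cell types in the pore gene values was not tested. The values came without read counts, and sequencing depth is thus unknown. Every fold change was computed on log2(FPKM + 1), a scale that shrinks the change of genes with low levels.

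Pore gene expression as a whole was nearly level across the libraries. The 31 genes summed to 687.3 FPKM in control 0, 644.9 FPKM in control 1 and 640.4 FPKM in siE2F1. The siE2F1 sum was thus below both, but it lay closer to control 1 than control 1 lay to control 0. Limma called 0 of the 31 genes at an adjusted p of 0.05, where 0.417% of all genes tested were called. At an unadjusted p under 0.05 there were 5 lower genes (NUP88, NUPL1, RAE1, SEH1L and NUP85), where 14.9% of all genes were lower by that measure, and 1 higher gene (TPR), where 13.5% were higher. These 6 are 19.4% of the pore genes, against 28.4% of all genes tested. No member lay 1.5-fold beyond both controls, a distance that 3.37% of all genes reached on the lower side and 2.26% on the higher side. In RNA from whole cultures, fewer cells in a given state and less RNA per cell cannot be told apart.

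In siE2F1, 17 of the 31 pore genes (54.8%) were below both controls, 9 were above both and 5 lay between them. Over all genes tested, 39.7% were below both, 43.7% above both and 16.6% between or level. The median log2 fold change of the pore genes was -0.06, against 0.01 over all genes tested. How far the pore genes leaned to the lower side depended on the control: the median was -0.19 against control 0 alone and -0.03 against control 1 alone, and 22 and 17 of the 31 were lower. The controls themselves differed here, since 25 of the 31 pore genes (80.6%) were lower in control 1 than in control 0, against 48.9% of all genes tested. Set against that difference gene by gene, 8 pore genes lay below both controls by more than the controls lay apart, and 3 lay above both by more. Among all genes tested, 29.1% and 30.4% did so.

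**Figure D1:**
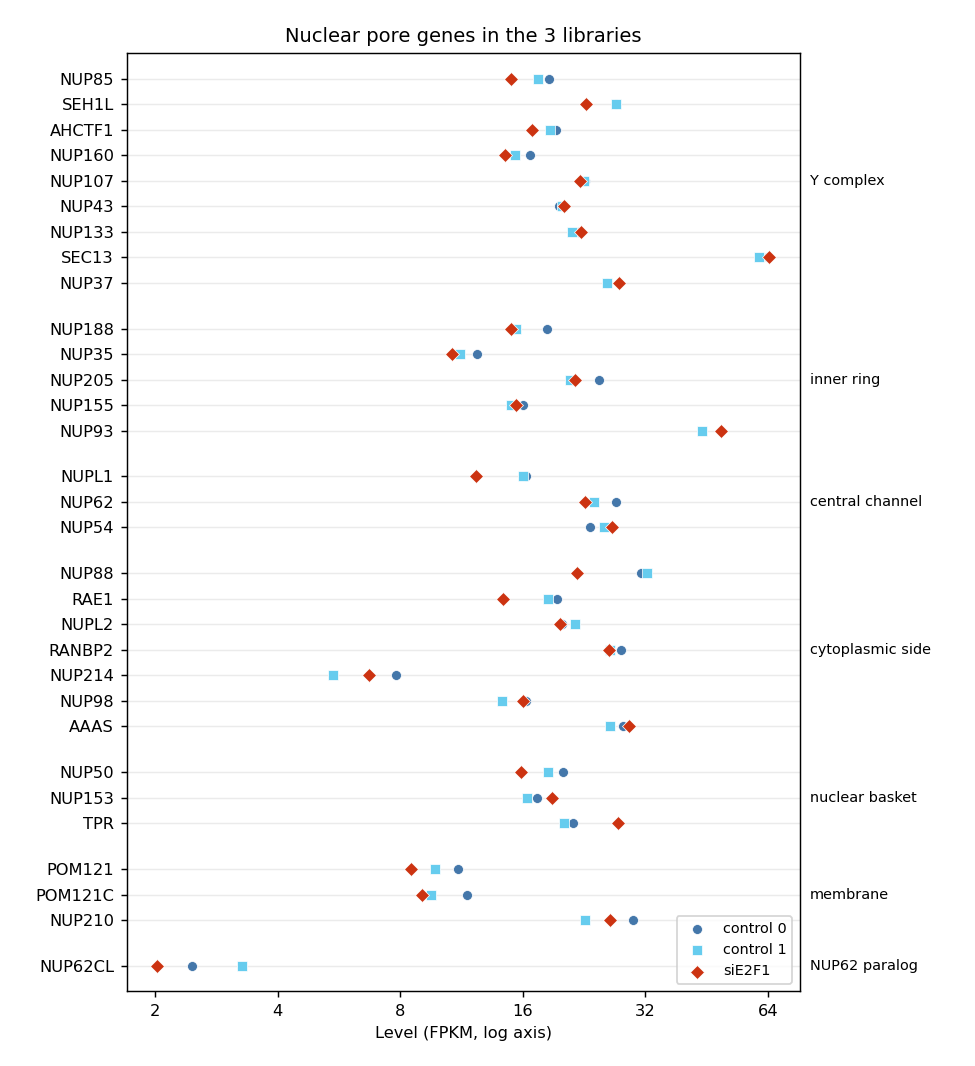
Level of each of the 31 nuclear pore genes in control 0 (circles), control 1 (squares) and siE2F1 (diamonds), in FPKM on a log axis, grouped by place in the pore. Most genes sit between 8 and 32 FPKM with the 3 libraries close together, SEC13 is highest in each library and NUP62CL lowest, and siE2F1 stands clearly apart for NUP88, RAE1, NUPL1 and TPR.

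The cytoplasmic face held the gene with the lowest fold change. NUP88, which anchors NUP214 at that face, was at 31.3 FPKM in control 0, 32.2 FPKM in control 1 and 21.7 FPKM in siE2F1. The siE2F1 library was well below both controls, which lay close together. NUP88 was 1.44-fold lower (log2 fold change -0.53, standard error 0.06, 95% confidence interval -0.74 to -0.31), but did not pass over all genes tested (limma adjusted p = 0.111). When small RNA genes were left out of the fit, NUP88 was the one pore gene to pass (limma adjusted p = 0.0379). In that fit 10.5% of all 13928 genes passed in either direction and 6.36% on the lower side. The lowest and highest adjusted p of NUP88 among the limma settings tried were 0.0379 and 0.188. NUP88 lies head to head with RPAIN, whose product carries replication protein A into the nucleus, and 14.8% of the 50-base stretches in NUP88 transcripts also occur in RPAIN transcripts, on either strand. RPAIN had 42.1 FPKM in control 0, 37.0 in control 1 and 33.7 in siE2F1. The kit does not mark strand, so reads from the shared stretches cannot be assigned, and their part in the NUP88 value was not tested.

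RAE1, an adaptor of messenger RNA export that binds NUP98, was at 19.4 FPKM in control 0, 18.4 FPKM in control 1 and 14.3 FPKM in siE2F1. It too was below both controls by more than they lay apart, and 0.424% of its 50-base stretches were shared with other genes. Its log2 fold change was -0.38 (standard error 0.07, limma adjusted p = 0.126). The other genes of this face lay between their controls, or outside both by no more than the controls differed. NUP98, whose transcript also encodes a scaffold protein of the Y complex, was at 16.3, 14.2 and 16.04 FPKM and so lay between the controls. NUP214, a large filament protein with phenylalanine-glycine repeats, was at 7.80, 5.45 and 6.71 FPKM. The controls differed so much for NUP214 that its 95% interval ran from -0.80 to 0.86 on the log2 scale, so differences within those bounds were not detectable. RANBP2, the giant SUMO ligase of the filaments, was at 27.9, 26.1 and 26.0 FPKM, NUPL2 at 19.9, 21.5 and 19.8 FPKM, and AAAS, the gene mutated in triple-A syndrome, at 28.2, 26.3 and 29.2 FPKM. None of these 3 lay beyond both controls by more than the control difference. RANBP2 shares 27.1% of its 50-base stretches with other genes, mainly the RGPD copies, of which RGPD3, RGPD4 and RGPD5 were between 4.68 and 5.87 FPKM in each library, RGPD2 between 3.10 and 3.25, RGPD1 between 1.38 and 1.79 and RGPD8 between 0.681 and 0.841 FPKM.

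The nuclear basket held the gene with the highest fold change. TPR, the coiled-coil protein that forms the basket filaments, was at 21.3 FPKM in control 0, 20.2 FPKM in control 1 and 27.4 FPKM in siE2F1. The siE2F1 library was above both controls by more than they differed (log2 fold change 0.39, standard error 0.07, 95% interval 0.15 to 0.62, limma adjusted p = 0.122). PRG4, which shares 5.44% of the 50-base stretches of TPR, was between 0.492 and 0.528 FPKM in each library. NUP153, which ties the basket to the ring, was at 17.3, 16.4 and 18.9 FPKM, again above both controls (log2 fold change 0.15, standard error 0.07, limma adjusted p = 0.283). NUP50, a mobile partner of NUP153 that helps unload importins, was at 20.1, 18.5 and 15.8 FPKM and so below both (log2 fold change -0.27, standard error 0.09, limma adjusted p = 0.191). All 3 basket genes lay beyond the controls by more than the control difference, TPR and NUP153 above and NUP50 below. By the same rule 30.4% of all genes tested lay above and 29.1% below. NUP50 shares 12.8% of its 50-base stretches with other genes.

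**Figure D2:**
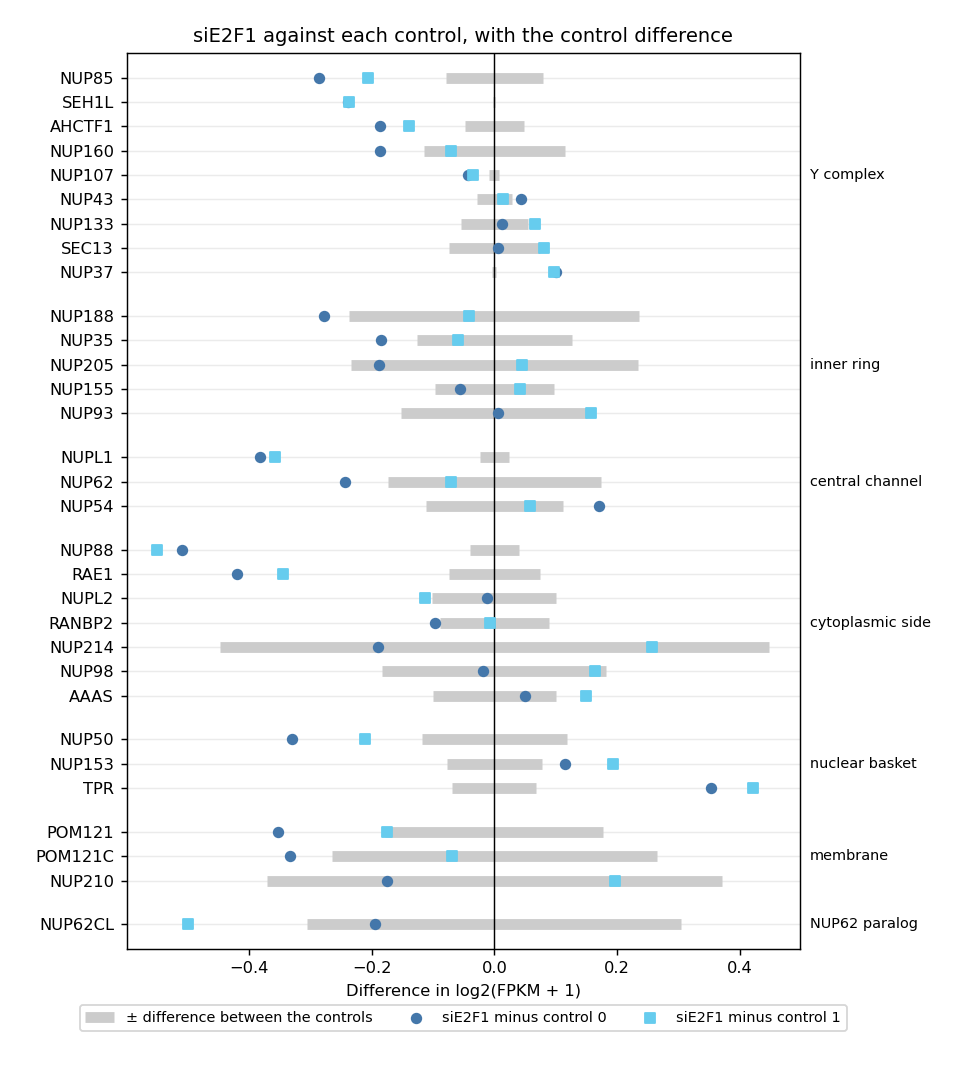
Difference in log2(FPKM + 1) between siE2F1 and control 0 (circles) or control 1 (squares) for each pore gene, with grey bars marking the size of the difference between the controls on either side of 0. Both points lie outside the grey bar on the lower side for 8 genes, among them NUP88, RAE1 and NUPL1, and on the higher side for NUP37, NUP153 and TPR.

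In the central channel, NUPL1 stood apart from its partners. NUPL1 encodes the nucleoporin now called NUP58, which binds NUP62 and NUP54 to line the channel with phenylalanine-glycine repeats. It was at 16.3 FPKM in control 0, 15.99 FPKM in control 1 and 12.2 FPKM in siE2F1. The controls nearly coincided and siE2F1 was below both (log2 fold change -0.37, standard error 0.06, 95% interval -0.57 to -0.17, limma adjusted p = 0.116). NUP54 was at 23.4, 25.3 and 26.4 FPKM and NUP62 at 27.1, 23.9 and 22.7 FPKM. Thus NUP54 was above both controls and NUP62 below both, each by less than the controls differed. NUP62 shares 7.65% of its 50-base stretches with the stress-response factor ATF5, which was at 11.9, 11.6 and 17.1 FPKM. The NUP62 paralog NUP62CL was the least expressed member at 2.46, 3.27 and 2.02 FPKM. Its siE2F1 value was below both controls, but by less than they differed (95% interval of the log2 fold change -0.95 to 0.25).

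The Y complex, 9 genes with the chromatin-binding AHCTF1 (ELYS) counted in, split into 5 below and 4 above both controls, with a median log2 fold change of -0.04. These are 55.6% and 44.4%, against 39.7% and 43.7% of all genes tested. SEH1L, a small beta-propeller subunit that also serves in the GATOR complex of nutrient sensing, was at 27.1 FPKM in each control and 22.8 FPKM in siE2F1. The controls agreed closely, and the log2 fold change was -0.24 (standard error 0.06, 95% interval -0.44 to -0.04, limma adjusted p = 0.151). NUP85, its neighbour in the short arm of the Y, was at 18.5, 17.5 and 15.0 FPKM (log2 fold change -0.25, standard error 0.07, limma adjusted p = 0.176). AHCTF1, which starts pore assembly on chromatin after mitosis, was at 19.3, 18.7 and 16.9 FPKM, below both controls, but 46.3% of its 50-base stretches also occur in its pseudogene AHCTF1P1.

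The other 6 genes of the Y complex were close to their controls. NUP160 was at 16.6, 15.3 and 14.5 FPKM, and NUP107 at 22.8, 22.7 and 22.1 FPKM. The NUP107 controls nearly coincided, so siE2F1 lay below both by more than they differed, although its log2 fold change was only -0.04. NUP133, at the tip of the long stem, was at 22.03, 21.2 and 22.2 FPKM, and NUP43 at 19.6, 20.0 and 20.2 FPKM. NUP37 was at 25.7, 25.8 and 27.6 FPKM, above both controls by more than they differed (log2 fold change 0.10, standard error 0.06, limma adjusted p = 0.366). SEC13, which is shared with the COPII coat of vesicles leaving the endoplasmic reticulum, had the highest level of all members in each library at 64.1, 60.8 and 64.4 FPKM. For these 6 genes the log2 fold change ran from -0.13 for NUP160 to 0.10 for NUP37, and none had an unadjusted p under 0.05.

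The 5 inner ring genes had log2 fold changes from -0.16 to 0.08, a median of -0.07 and limma adjusted p of 0.435 or more, with the controls a median of 0.15 apart on the log2 scale. NUP93, the hub that links the ring to the channel, was at 49.0, 44.0 and 49.2 FPKM. NUP205 and NUP188, the large paired scaffold proteins, were at 24.7, 20.8 and 21.5 FPKM and at 18.3, 15.4 and 14.9 FPKM. NUP155, which touches the membrane, was at 16.1, 14.9 and 15.4 FPKM, and NUP35 at 12.3, 11.2 and 10.7 FPKM. Each of the 5 was lower in control 1 than in control 0, against 48.9% of all genes tested. None lay beyond both controls by more than that difference, where 29.1% of all genes lay below and 30.4% above.

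The membrane proteins of the pore were lower or level. POM121 was at 11.1, 9.70 and 8.48 FPKM and its copy POM121C at 11.7, 9.52 and 9.03 FPKM, both below both controls but by less than the controls differed. These copies cannot be separated with certainty: POM121C transcripts hold 31.1% of the 50-base stretches of POM121, and POM121 transcripts 46.3% of those of POM121C. NUP210, the glycoprotein whose bulk lies in the lumen of the nuclear envelope, was at 29.8, 22.8 and 26.3 FPKM, between the controls. NDC1, the remaining membrane anchor of the ring, was not among the 31 genes but on a list of 14 other pore-associated and envelope genes. It was at 18.2 FPKM in control 0, 17.1 FPKM in control 1 and 12.2 FPKM in siE2F1, below both, with a log2 fold change of -0.50 (standard error 0.07, limma adjusted p = 0.112).

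Some pore genes share sequence with other genes. The 8 pore genes that share over 10% of their 50-base stretches with other genes (AHCTF1, NUP50, NUP62, NUP88, NUPL2, POM121, POM121C and RANBP2) were all below both controls. Among the remaining 23, 9 were below both and 9 above both (39.1% each), with a median log2 fold change of 0.01. All genes tested had 39.7%, 43.7% and 0.01. The split depends on where the line is set. Under 10%, NUP153 (8.39%), NUP133 (7.39%) and TPR (6%) were above both controls, NUP214 (6.79%) between them and NUP107 (5.68%) below both. Shared sequence was not counted for genes outside the pore, so the 8 have no such share to be read against. This split was made after the values were seen, and the part of shared reads in the result was not tested.

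**Figure D3:**
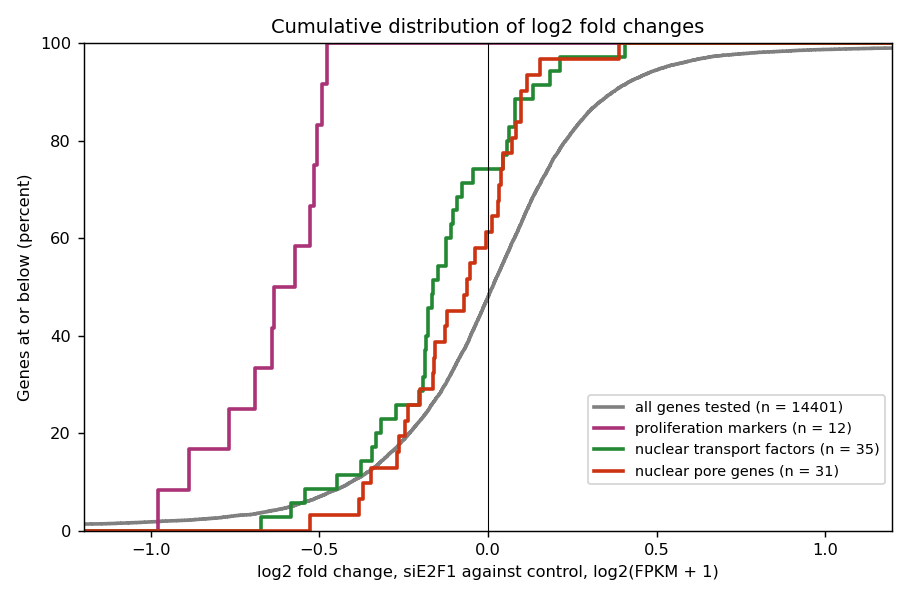
Cumulative share of genes (percent) at or below each log2 fold change of siE2F1 against control, for the 31 nuclear pore genes, 35 nuclear transport factors, 12 proliferation markers and all 14401 genes tested. The pore genes rise between -0.53 and 0.39 with a median of -0.06, while the proliferation markers lie wholly below -0.47.

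Proliferation markers, a list of 12 genes, were read in the same libraries. Fewer dividing cells and less activation of these genes by E2F1 cannot be told apart here. Each of the 12 had its lowest level in siE2F1, against 39.7% of all genes tested. Their median log2 fold change was -0.60, with a range from -0.98 to -0.48, and their sum was 527.3, 515.6 and 326.1 FPKM. PCNA, the sliding clamp of replication, was at 116.7, 115.7 and 67.8 FPKM and the cell-cycle antigen MKI67 at 9.64, 8.06 and 5.98 FPKM. Over all genes tested limma called 0 of the 12 (0.417% of all genes called), although all 12 were lower at an unadjusted p under 0.05 (14.9% of all genes), and 11 passed as lower without small RNA genes (6.36% of all genes in that fit). The part of this shift in the values of the lower pore genes was not tested.

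The receptors and regulators that work through the pore were given as a list of 36 nuclear transport factors, of which 35 were listed and tested. In siE2F1, 24 (68.6%) were below both controls, 9 (25.7%) above and 2 between, with a median log2 fold change of -0.16. Of all genes tested, 39.7% were below both and 43.7% above both. Limma called 0 of the 35 transport factors, where 0.417% of all genes tested were called. At an unadjusted p under 0.05, 9 were lower and 1 higher. Without small RNA genes, 4 passed as lower. These 9 and 1 are 25.7% and 2.86% of the list, against 14.9% and 13.5% of all genes tested, and 6.36% of all genes were lower without small RNA genes. Of the 12 listed genes among the other pore-associated genes, 6 were below both controls and 4 above (median -0.06), with 0 called, 3 lower and 1 higher at an unadjusted p under 0.05, and NDC1 alone passing without small RNA genes (limma adjusted p = 0.0423). These 4 genes are 33.3% of the 12, near the 28.4% of all genes tested.

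The lowest of these were import adaptors and a Ran regulator. KPNA3, an importin alpha, was at 11.7, 10.2 and 6.48 FPKM (log2 fold change -0.67), and KPNA2, an importin alpha abundant in dividing cells, at 92.9, 84.7 and 58.8 FPKM (-0.59). RANBP1, which helps release Ran from transport complexes, was at 129.7, 141.9 and 92.8 FPKM (log2 fold change -0.54). Each of the 3 was below both controls by more than they differed and passed without small RNA genes (limma adjusted p = 0.0409, 0.0403 and 0.0429), but not over all genes tested (limma adjusted p = 0.119, 0.115 and 0.1203). On the other side KPNA6, another importin alpha, was at 15.8, 14.4 and 20.3 FPKM (log2 fold change 0.41, limma adjusted p = 0.137). TOR1AIP1, an inner membrane protein that activates torsins, was at 21.0, 21.8 and 25.9 FPKM (log2 fold change 0.26). The importin IPO8 was at 24.0, 24.8 and 28.4 FPKM and SUN2, of the bridge between nucleoskeleton and cytoskeleton, at 21.2, 19.6 and 23.3 FPKM. The importin alpha genes thus stood on both sides of their controls.

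**Figure D4:**
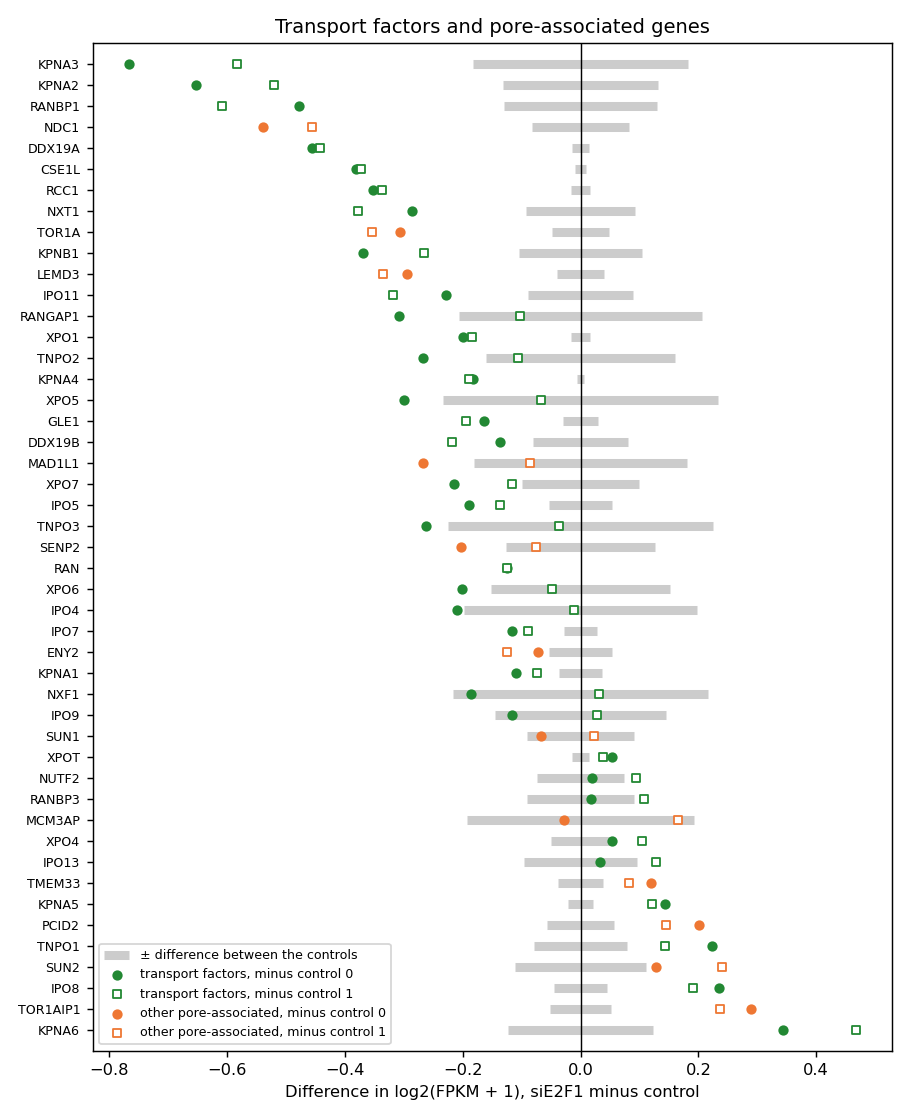
Difference in log2(FPKM + 1) between siE2F1 and control 0 (filled) or control 1 (open) for 35 transport factors and 12 other pore-associated genes, sorted by log2 fold change, with grey bars for the difference between the controls on either side of 0. KPNA3, KPNA2, RANBP1 and NDC1 lie lowest and KPNA6 highest.

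Promoter sequence was examined because E2F1 acts at promoters. RefSeq windows on GRCh38.p14, from 250 bases before to 50 after an annotated start, were matched for 29 of the 31 pore genes. A gene with several windows was counted if any of them held the letters. Letters of an E2F site (TTTCCCGC, TTTCGCGC, TTTGGCGC or TTTGCCGC, on either strand) occurred in 1 of the 29 (3.45%), against 3.99% of all 27305 genes in the table and 6.77% of the 8830 tested genes matched by symbol. That gene was NUP155, whose siE2F1 value lay between its controls (log2 fold change -0.01). The stretch is shown because it is the one match, with the E2F letters in capitals, 22 bases after the start, at chr5:37371067-37371096 on the minus strand.
NUP155: caaggcgctcgTTTGGCGCgcgcgccctag

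A different element, CCAAT, was counted in the same windows. CCAAT, the box bound by NF-Y, occurred on either strand in 12 of the 29 pore genes (41.4%), against 39.7% of all genes in the table and 43.7% of the tested genes matched, so its share among pore genes was near the background. The 12 pore genes with CCAAT had a median log2 fold change of -0.05 and the 17 without it -0.13. The tested genes matched had -0.004 and 0.01. NUP88 and TPR, picked here for their fold changes, are among the 12. The 250 bases before the start of NUP88 (chr17:5419663-5419912, minus strand) hold CCAAT 3 times, and those of TPR (chr1:186375254-186375503, minus strand) 2 times. They are printed to set the members at opposite ends of the range side by side, with each CCAAT box, here read as ATTGG along the gene, in capitals.
NUP88: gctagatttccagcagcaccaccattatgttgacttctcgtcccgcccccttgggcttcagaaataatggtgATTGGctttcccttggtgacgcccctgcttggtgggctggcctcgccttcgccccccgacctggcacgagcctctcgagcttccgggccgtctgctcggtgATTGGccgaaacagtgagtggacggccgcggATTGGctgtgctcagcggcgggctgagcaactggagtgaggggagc
TPR: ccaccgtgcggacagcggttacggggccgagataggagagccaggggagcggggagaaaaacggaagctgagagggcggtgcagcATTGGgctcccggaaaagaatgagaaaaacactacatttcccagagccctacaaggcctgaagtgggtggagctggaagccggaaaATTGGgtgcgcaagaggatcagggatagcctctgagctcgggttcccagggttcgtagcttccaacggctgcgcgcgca

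Neither window holds the E2F letters, which says only that these letters are not in these 300 bases. The CHR element of cell-cycle promoters (TTTGAA or TTCGAA, on either strand) was found in 7 of the 29 pore genes (24.1%), against 19.5% of all genes in the table and 15.1% of the tested genes matched. The 7 pore genes with it had a median log2 fold change of 0.07 and the 22 without it -0.10. The tested genes matched had -0.008 and 0.007. NUP50 and NUP93 count among the 7 only through windows at annotated starts downstream of their first. Of the pore genes, 13 start within 1000 bases of a gene on the opposite strand, though not all of these partners were listed or tested. The values of the tested partners went the same way in some pairs and not in others. By log2 fold change, RPAIN (-0.22) had the sign of NUP88 (-0.53), and PGAP2 and NUP98 were each at 0.07. DOLK (0.07) and ATF5 (0.51) were opposite in sign to NUP188 and NUP62 (each -0.16). NUP37 starts 69 bases from PARPBP, a gene of the DNA damage response, which was at 12.2, 12.8 and 8.05 FPKM (log2 fold change -0.58, limma adjusted p = 0.111), while NUP37 was at 0.10. TPR starts 585 bases from C1orf27, which was at 8.82, 9.88 and 9.35 FPKM and so lay between its controls, while TPR was above both.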

How the data were processed

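RNA sequencing of LNCaP-abl cells in 2 control siRNA libraries and 1 E2F1 siRNA library was compared, grouped by sample title. The TruSeq RNA kit (v2) was used for library preparation, per the labels' protocols. Alignment and quantification tools in the submitters' processing notes are TopHat2 (2.0.4) and Cufflinks (2.0.2), with build hg19 and no annotation named. The authors deposited 1 log2 FPKM value for each gene in each library. The lowest value is log2 of 0.1, so FPKM was computed as 2 to the deposited value minus 0.1; were 0.1 a set minimum, each FPKM would be 0.1 too low. After sorting, the libraries' values are within 0.0653 of each other, as quantile normalization would give, which no source states; a change shared by most genes could then not be seen.

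Values were analysed as log2(FPKM + 1), and genes averaging 1 FPKM or more (14401) entered the test by limma 3.58.1 in R 4.3.3 (empirical Bayes with a mean-variance trend, two-sided, Benjamini-Hochberg over all genes tested, threshold 0.05). The spread comes from the 2 controls (1 residual degree of freedom), and siE2F1 is assumed to vary likewise; intervals are 95% from the same fit. No permutation of 3 libraries can reach 0.05. Small RNA genes are the 473 tested genes whose names begin with RNU, SNOR, SCARNA or MIR, without host genes. The fitting step was run on data simulated without small RNA genes and with the same spread in each library. This checked the code only and cannot tell how siE2F1 varies. Shared sequence was counted as 50-base stretches of each gene's protein-coding transcripts found in any other gene's GENCODE 29 transcripts. Promoter windows came from RefSeq (GRCh38.p14). All 31 members are named; from the 2 pathway lists the 4 genes with the largest fold change per direction beyond both controls are named, and DNA neighbours and sharing genes were named after their values were seen. Members and lists were chosen with earlier results of these data known. Protein sequence features were not analysed here. Alternatives were other pseudocounts and filters, a common median, no trend, no small RNA genes and each control left out.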

Additional observations from a re-analysis of the deposited data

How the results depend on the processing

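With 1 siE2F1 library and 2 controls, no value of siE2F1 has an error of its own, and depth is unknown. The count of pore genes called lower was 0 with each tested setting except without small RNA genes, where it was 1 (NUP88); 0 were called higher under each setting, and 0 lay 1.5-fold beyond both controls in either direction. The pore genes below both controls numbered 17 under each setting except with a mean of at least 5 FPKM (16, NUP62CL being left out) and the settings named next. Without 1 of the controls the count below the other was 17 to 22 and above it 9 to 14, and the median log2 fold change was -0.1857 to -0.0342, values with no test. Leaving out the 8 members with over 10% shared sequence, a choice made after seeing the data, left 9 below both controls of 23, 5 of them by more than the control difference, and a median of 0.0106. The common median moved no library (shift 0). For each of the 31 members the log2 fold change kept its sign under each refitted setting; 5 members (NUP98, NUP155, NUP205, NUP210 and NUP214) differed in sign between the 2 controls. No paired analysis was possible because there is only 1 siE2F1 library, and its title carries no replicate number.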
